A study of Rattus norvegicus with 9 samples.

Results

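The aquaporins described here are 7 rat water channel genes, Aqp1, Aqp3, Aqp4, Aqp5, Aqp7, Aqp8 and Aqp9, measured in uterine tissue. They were found by the gene symbol of the array annotation, which paired them with 10 of the 31099 probe sets, and for each gene the probe set with the highest mean over the arrays was taken as its main measurement. Uterine RNA of female rats was hybridised to 9 Affymetrix arrays, 3 for each of 3 groups: treatment (arrays 31, 32 and 33), model (21, 22 and 23) and control (41, 42 and 43). Control rats received nothing. Ovulation was induced in model rats by intraperitoneal PMSG at 0.5 U per rat, a mare serum hormone that drives follicle growth, and 48 h later by an equal amount of human chorionic gonadotropin (HCG), the ovulation trigger. Rats of the treatment group were induced in this way too, and in addition had electroacupuncture at 2 body points, Guanyuan and Sanyinjiao, for 15 min a session daily for 7 days before the induction and onward through it. The labels describe 18 rats, 6 in each group. Whether 1 array stands for 1 animal is not stated, so p-values measure the spread between arrays, which may be technical. Strain, age and stage of the oestrous cycle are not given in the labels.

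Aquaporins are membrane pores that let water follow an osmotic gradient. Aqp1, Aqp4, Aqp5 and Aqp8 are mainly water pores, whereas Aqp3, Aqp7 and Aqp9 are aquaglyceroporins that also pass glycerol and other small solutes. In the rodent uterus, ovarian steroids govern how much fluid lies in the lumen and in the stroma, and water channels of the epithelium, vessels and muscle are part of the route that this water takes. The comparisons asked what induction changed in these genes (model against control), what induction with electroacupuncture changed (treatment against control) and whether the induced groups differed (treatment against model).

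Values are the deposited intensities on a linear scale, and every log2 value is log2(intensity + 16), a scale on which changes of dim genes come out too small. Differences were tested with limma over 10973 genes, and a gene passed at a Benjamini-Hochberg adjusted p under 0.05. Probe sets had to reach the 40th percentile of their own array on at least 3 arrays, a level of 15.2 to 16.2. Of the 7 aquaporins, Aqp1, Aqp5, Aqp8 and Aqp9 met this level and were tested, and Aqp3, Aqp4 and Aqp7 did not. Median intensities of the arrays were 23.5 to 23.96. The tissue label was checked by markers: all 11 smooth muscle and all 17 epithelial markers on the array were among the genes tested. Of 8 ovary and oviduct markers 6 were not, and of 8 skeletal muscle markers 4 were not. Of all 14217 genes on the array 10973 were tested, so passing the filter is a weak check. The main probe set of the oestrogen receptor gene Esr1 lay at 4.92 to 6.10, below the filter level, on all 9 arrays, and the progesterone receptor gene Pgr lay at 43.8 to 108. Control 43 stood apart from controls 41 and 42: C3, a complement gene that oestrogen induces in the rat uterus, measured 13.2 there and 5116 and 4301 in the other controls. Over the whole array, control 43 had a Pearson correlation of log2 values of 0.985 with model 21, against 0.945 with control 41 and 0.959 with control 42, which had 0.989 with each other. It was kept in the main comparisons, and the values without it are given beside the aquaporin results that rest on it.

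None of the 4 tested aquaporins passed in any comparison over the 9 arrays. At an unadjusted p under 0.05 the count was 1 of 4, Aqp5, in either comparison with control and 0 of 4 in treatment against model, where 17.4% of all genes in treatment against control, 12.4% in model against control and 14.7% in treatment against model were under it. Of all genes tested, 0.51% passed in treatment against control, 0.0273% in model against control, 0.574% with both induced groups pooled against control and 0% in treatment against model, where 1611 genes had an unadjusted p under 0.05. At these rates nearly all genes missed the threshold, so that the count of 0 sets the aquaporins apart from nothing. Their levels differed widely between single arrays, and Aqp5, Aqp8 and Aqp3 each divided the controls in its own way.

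**Figure D1:**
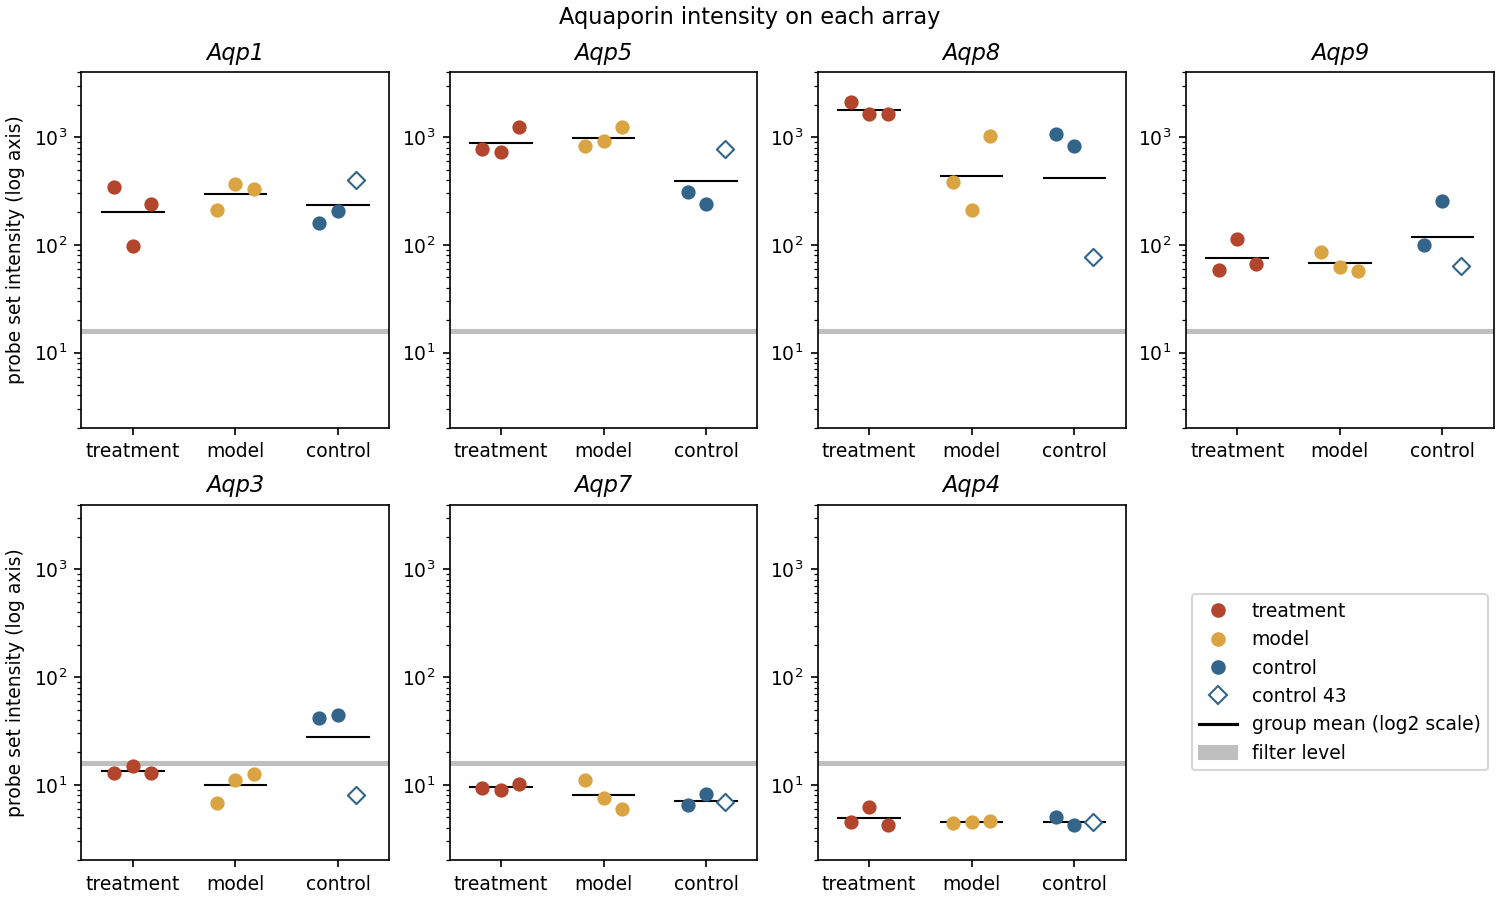
Intensity (log axis) of the main probe set of each aquaporin on the 3 treatment, 3 model and 3 control arrays. Points are arrays, lines are group means taken on the log2 scale, the open diamond is control 43 and the grey band is the filter level of 15.2 to 16.2. Control 43 sits with the induced arrays for Aqp5 and Aqp3 and is the lowest array for Aqp8.

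Promoter windows are shown for Aqp5, Aqp8 and Aqp3, whose results turn on control 43. They run from 250 bases before to 50 after the start site, as RefSeq gives them on GRCr8. Control 43 was the lowest array in C3 but the highest in Igf1, at 1197, another gene of the oestrogen-induced list. The part of oestrogen in its position was not tested. The window of Aqp5 is chr7:132601278-132601577 on the plus strand, that of Aqp8 is chr1:187424193-187424492 on the plus strand and that of Aqp3 is chr5:61040634-61040933 on the minus strand. Capitals mark GGTCA or its reverse complement TGACC, either arm of an oestrogen response element, and TATAAA, the TATA box.
Aqp5: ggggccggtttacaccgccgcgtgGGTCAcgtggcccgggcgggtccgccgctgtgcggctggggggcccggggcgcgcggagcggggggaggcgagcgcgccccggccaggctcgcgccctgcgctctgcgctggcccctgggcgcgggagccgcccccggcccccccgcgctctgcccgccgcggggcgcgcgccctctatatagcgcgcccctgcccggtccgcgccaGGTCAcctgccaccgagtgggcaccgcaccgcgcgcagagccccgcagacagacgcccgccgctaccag
Aqp8: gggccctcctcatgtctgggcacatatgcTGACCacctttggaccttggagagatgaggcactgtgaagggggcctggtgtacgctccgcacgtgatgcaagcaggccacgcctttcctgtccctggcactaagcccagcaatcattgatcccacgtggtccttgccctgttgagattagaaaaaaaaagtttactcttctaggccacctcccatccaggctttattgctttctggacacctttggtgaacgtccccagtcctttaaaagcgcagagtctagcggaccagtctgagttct
Aqp3: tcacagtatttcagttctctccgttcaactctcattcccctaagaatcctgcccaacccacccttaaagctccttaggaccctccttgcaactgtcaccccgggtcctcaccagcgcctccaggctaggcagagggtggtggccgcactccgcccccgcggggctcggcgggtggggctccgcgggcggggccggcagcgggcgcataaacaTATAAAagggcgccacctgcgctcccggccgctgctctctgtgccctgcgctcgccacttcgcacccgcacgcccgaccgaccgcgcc
Such an arm occurs in Aqp5 at -226 and -19 and in Aqp8 at -221 (first base, start site counted as 0). On either strand it is found in 4 of the 13 windows of 12 aquaporin genes and in 40.5% of all 33469 promoter windows. The TATA box lies at -38 in Aqp3 and is found in 3 of those 13 windows and in 14.2% of all windows. The full element, GGTCA and TGACC with 3 bases between them, was in none of the 13 windows of 12 aquaporin genes and in 0.0269% of all windows, and the element of the glucocorticoid and progesterone receptors, AGAACA and TGTTCT with 3 bases between them, was in none of the 13 and in 0.0149%. The window of Aqp5 had a GC content of 82.3%, against 53.7% for Aqp8, 67.3% for Aqp3 and a median of 51.7% over all windows. These matches describe letters only, and no binding was measured.

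Aqp5, the water pore of secretory epithelia, measured 779, 724 and 1236 on the treatment arrays, 824, 927 and 1254 on the model arrays and 309, 241 and 776 on controls 41, 42 and 43. All 6 induced arrays lay far above controls 41 and 42. Control 43 lay below every model array and between treatment arrays 31 and 32, so that the model and control groups did not overlap and the treatment and control groups did. Model arrays were all above the controls for 7.79% of genes.

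In log2 terms Aqp5 averaged 9.97 ± 0.31 in model and 8.66 ± 0.86 in control arrays (SD, n = 3 each), a log2 fold change of 1.31 (SE 0.41, 95% interval 0.38 to 2.24, adjusted p = 0.3). Treatment arrays averaged 9.82 ± 0.41, which differed from control by 1.16 (SE 0.41, interval 0.23 to 2.09, adjusted p = 0.219). Treatment differed from model by -0.15 (interval -1.08 to 0.78, adjusted p = 0.874). With both induced groups pooled, the difference from control was 1.23 (SE 0.35, adjusted p = 0.18), and 1.72 without control 43 (SE 0.23, adjusted p = 0.0055). The order of the group means was thus model, treatment and control, of which the induced pair differed by less than the spread between arrays.

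In the fits without control 43, Aqp5 passed as higher in both induced groups. Control 43 was the control nearest to the induced arrays in Aqp5, so leaving it out widens the difference. These calls therefore do not by themselves support a rise. The log2 fold change was 1.79 in model against control (SE 0.26, adjusted p = 0.00896) and 1.64 in treatment against control (SE 0.26, adjusted p = 0.0124), with controls at 8.17 ± 0.24 (SD, n = 2). In these fits 12.6% of all genes passed in model and 6.56% in treatment against control (5.7% and 1.49% of all genes rose), so the call is one of many that depend on this array. Aqp5 did not pass in any of the 8 fits that left out another array, in which its difference from control was at its smallest without control 42, at 0.98 in model and 0.83 in treatment arrays. The 17 epithelial markers summed to 4795 to 7322 on treatment arrays, 4280 to 5672 on model arrays and 5343 to 21356 on control arrays, with control 43 the lowest control. With control 43 included, 16 of the 17 were lower in model and 15 of the 17 in treatment against control, and 0 passed. Their median log2 fold changes were -0.75 and -0.44, against 0.02 and -0.04 over all genes. With both induced groups pooled, 1 of the 17, Prom1, passed as lower (-2.45, adjusted p = 0.0477). Prom1 measured 228 to 491 on induced arrays and 825 to 3305 on control arrays. Without control 43, 12 of the 17 passed as lower in model and 5 of the 17 in treatment against control. Aqp5 was thus lowest on the 2 arrays with the highest epithelial sums, controls 41 and 42, and the part of epithelial content in its level was not tested. In whole tissue, fewer cells of a type and less RNA per cell cannot be told apart.

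The neighbours of Aqp5 on the chromosome gave no such signal. Aqp2, Aqp5 and Aqp6 are consecutive protein-coding genes on rat chromosome 7. The probe set of Aqp2, the vasopressin-regulated channel of the kidney, lay at 6.65 to 10.01 and that of Aqp6, a channel of kidney intracellular vesicles, at 5.18 to 8.90, below the filter level on all 9 arrays.

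Aqp8, a water pore that also passes ammonia and hydrogen peroxide, measured 2113, 1647 and 1650 on the treatment arrays, 386, 212 and 1017 on the model arrays and 1059, 820 and 77.1 on controls 41, 42 and 43. Every treatment array was above every model and every control array. Model 23 lay with controls 41 and 42, models 21 and 22 lay below them, and control 43 was the lowest of all arrays.

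On the log2 scale Aqp8 averaged 10.82 ± 0.21 in treatment, 8.83 ± 1.10 in model and 8.77 ± 1.94 in control arrays (SD, n = 3 each). Treatment differed from model by 1.99, or 3.96-fold (SE 0.90, 95% interval -0.07 to 4.04, adjusted p = 0.354). Groups did not overlap, with treatment the higher, for 8.1% of genes in that comparison. Leaving out single arrays gave 1.49 (without model 22) to 2.58 (without model 23), with adjusted p-values of 0.144 to 0.68. The difference kept its direction in those 9 fits, and it passed in none of them.

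Treatment differed from control in Aqp8 by 2.05 (SE 0.90, interval -0.01 to 4.10, adjusted p = 0.29), and groups did not overlap, with treatment the higher, for 9.4% of genes there. Model differed from control by 0.06 (interval -2.00 to 2.12, adjusted p = 0.977), an interval that holds large changes of either sign. These values rest on control 43. Without it, controls averaged 9.89 ± 0.26 (SD, n = 2), treatment differed from control by 0.93 (SE 0.53, adjusted p = 0.325) and model by -1.06 (SE 0.53, adjusted p = 0.219). The order of the group means then became treatment, control and model, in place of treatment, model and control, and in neither order did neighbouring groups differ by an amount that passed.

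**Figure D2:**
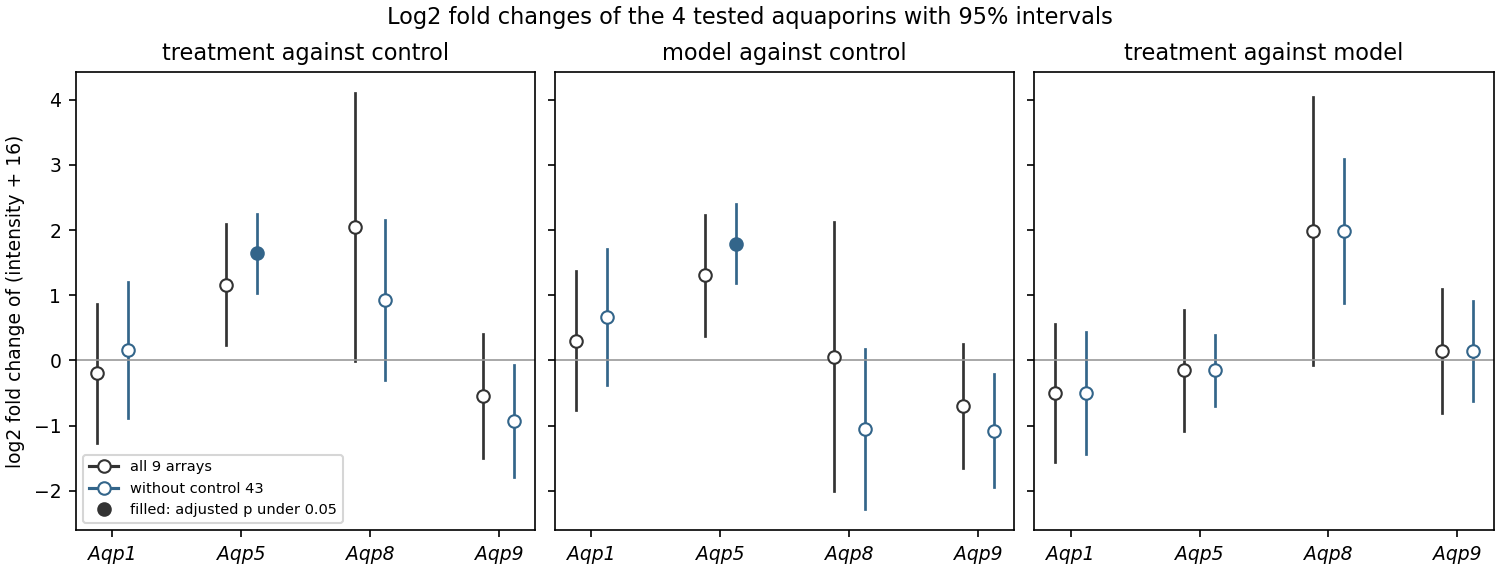
Log2 fold changes (vertical axis, log2 of intensity + 16) of the 4 tested aquaporins with 95% intervals from limma, with all 9 arrays (dark) and without control 43 (blue). Filled points passed at an adjusted p under 0.05: they are Aqp5 in treatment and in model against control, without control 43, while for Aqp8 the model difference moves from 0.06 to -1.06.

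Aqp3, an aquaglyceroporin of basolateral epithelial membranes, was dim, at 12.8, 14.9 and 12.9 on the treatment arrays and 6.81, 11.1 and 12.5 on the model arrays, against 42.0, 44.2 and 8.04 on controls 41, 42 and 43. Only controls 41 and 42 exceeded the filter level, which is why the gene was not tested. The group means differed by -0.57 in treatment and -0.75 in model against control on the log2 scale, beside an SD of 0.75 among the 3 controls.

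With no filter, 14217 genes were tested, of which 0.352% passed in treatment and 0.00703% in model against control, and Aqp3 did not (adjusted p = 0.384 and 0.437). Without both the filter and control 43, a setting chosen after the data were seen, Aqp3 fell in treatment (-1.002, SE 0.09, adjusted p = 0.00189) and in model arrays (-1.18, SE 0.09, adjusted p = 0.000713). In that setting 5.25% and 9.26% of genes passed. All 6 induced arrays were below the filter level, so the size of the difference is uncertain. With 1 in place of 16 added before log2, and control 43 included, model differed from control by -1.26.

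**Figure D3:**
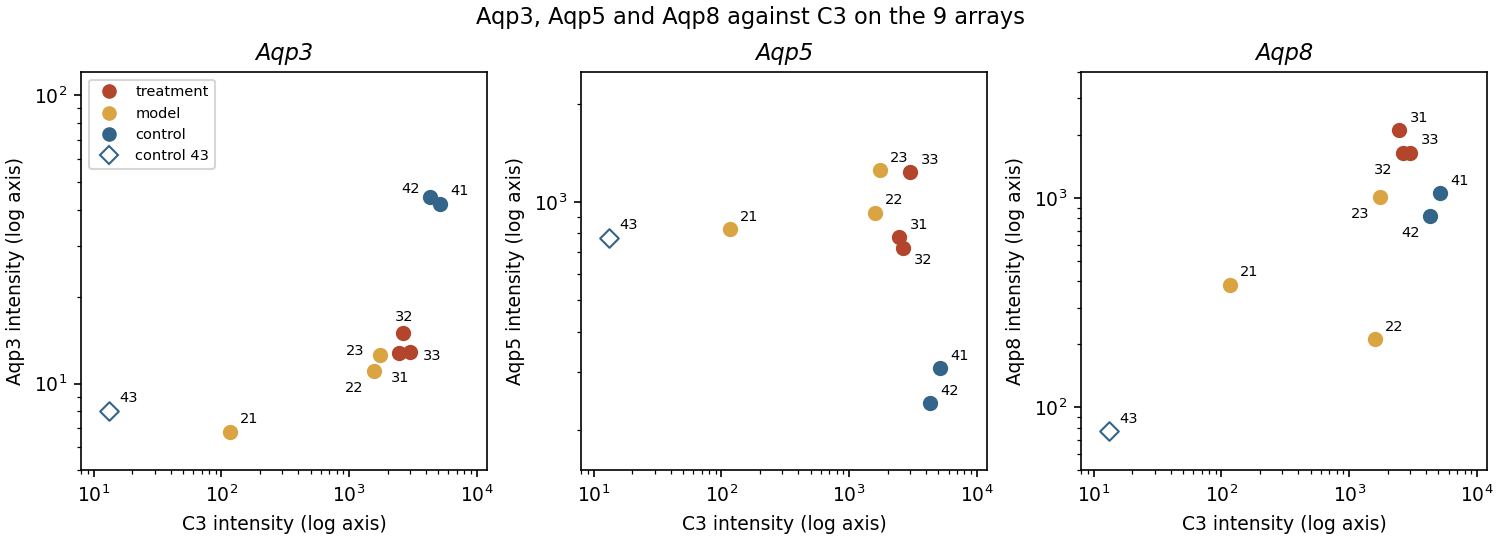
Intensity of Aqp3, Aqp5 and Aqp8 (vertical axes, log) against that of C3 (horizontal axis, log) on each of the 9 arrays, labelled by array number; the open diamond is control 43. Controls 41 and 42, with the highest C3, have the highest Aqp3 and the lowest Aqp5, while the highest Aqp8 belongs to the treatment arrays at C3 intensities of 2462 to 2999.

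The plot against C3 sets these 3 genes beside the complement gene on each array. C3 measured 2462, 2652 and 2999 on the treatment arrays, 116, 1581 and 1733 on the model arrays and 5116, 4301 and 13.2 on the controls. Aqp3 was above the filter level on the 2 arrays with the highest C3, controls 41 and 42, and below it on the other 7, where its order has no meaning. Aqp5 was lowest where C3 was highest, but it was similar in control 43 and treatment 31, whose C3 intensities were far apart. The arrays share 1 table and group membership, so these pairings are given as a description.

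Aqp1, the water pore of blood vessels and red cells, measured 346, 98.4 and 240 on the treatment arrays, 209, 370 and 332 on the model arrays and 159, 204 and 401 on controls 41, 42 and 43. Its groups overlapped in every comparison, with treatment 32 the lowest and control 43 the highest array. On the log2 scale it averaged 7.78 ± 0.85 in treatment, 8.28 ± 0.42 in model and 7.98 ± 0.65 in control arrays (SD, n = 3 each). Treatment differed from control by -0.20 (95% interval -1.26 to 0.86, adjusted p = 0.859), model from control by 0.30 (-0.76 to 1.36, adjusted p = 0.78) and treatment from model by -0.50 (-1.57 to 0.56, adjusted p = 0.605).

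The direction of these differences was not stable. A second probe set of Aqp1 measured 112, 71.2 and 81.3 on the treatment arrays, 64.7, 92.0 and 83.9 on the model arrays and 71.8, 68.5 and 108 on the controls. It gave 0.08 in treatment against control, -0.03 in model against control and 0.11 in treatment against model, each with the sign opposite to that of the main probe set. In treatment against control the main probe set also turned, to 0.27 without treatment 32 and to 0.16 without control 43.

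Endothelial markers are set beside Aqp1 because vessels carry it. The summed intensity of 10 endothelial markers was 549 to 1231 on treatment arrays, 1305 to 1481 on model arrays and 902 to 1737 on control arrays, lowest in treatment 32 and highest in control 43, the lowest and highest arrays of the main Aqp1 probe set. Most other arrays kept this order for the main probe set, but not all. Model 21 had 209 for Aqp1 and a sum of 1305, whereas treatment 31 had 346 and 1231. The second probe set followed the sum less closely, being lowest in model 21 and highest in treatment 31. It was next highest in control 43, at 108, and low in treatment 32, at 71.2. The gene with the most similar profile to Aqp1 among 10890 others was Clec14a, a C-type lectin of endothelial cells, with a Pearson correlation of 0.987 over the 9 arrays on the log2 scale, followed by Srgn, the proteoglycan serglycin, at 0.968. Such a correlation is the highest of many on few arrays and describes them only. Endothelial markers were lower in treatment than in model arrays for 10 of 10 members (median log2 fold change -0.49, against -0.05 over all genes), and 0 passed. The von Willebrand factor gene Vwf differed by -0.76 (adjusted p = 0.286). Of 5 red cell markers on the array, 3 (Slc4a1, Ahsp and Epb42) lay under the filter, and the summed level was 295 to 1055 on treatment, 463 to 737 on model and 246 to 600 on control arrays. Most of that level was the globin gene Hbb, at 988 of 1055 in treatment 32 and 198 of 246 in control 42. The part of vessel or blood content in the Aqp1 level was not tested.

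**Figure D4:**
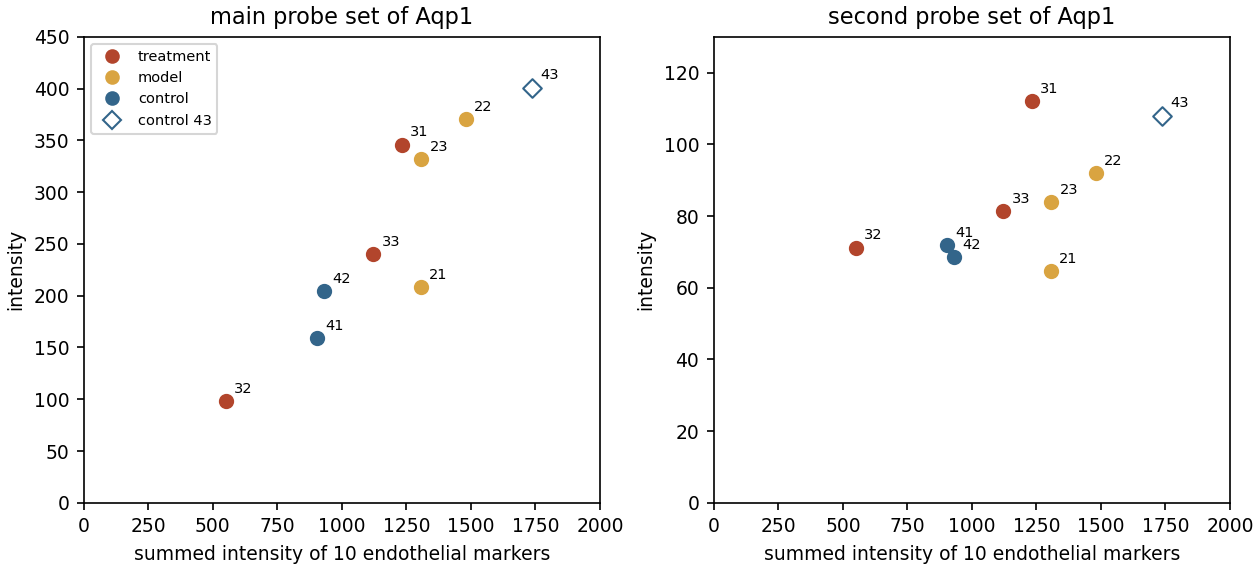
Intensity of the main (left) and the second (right) probe set of Aqp1 against the summed intensity of 10 endothelial markers on each of the 9 arrays, labelled by array number; the open diamond is control 43. For the main probe set treatment 32 is lowest on both axes, at 98.4 and 549, and control 43 is highest on both, at 401 and 1737; for the second probe set model 21 is the lowest array and treatment 31 the highest.

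Aqp9, an aquaglyceroporin known from liver and white blood cells, measured 58.3, 112 and 66.3 on the treatment arrays, 85.7, 61.9 and 57.4 on the model arrays and 98.8, 254 and 63.9 on controls 41, 42 and 43. Control 42 stood above all other arrays, and the groups overlapped. Aqp9 averaged 6.53 ± 0.42 in treatment, 6.38 ± 0.25 in model and 7.08 ± 0.90 in control arrays on the log2 scale (SD, n = 3 each). Treatment differed from control by -0.55 (95% interval -1.50 to 0.40, adjusted p = 0.512), model from control by -0.70 (-1.65 to 0.25, adjusted p = 0.488) and treatment from model by 0.14 (-0.81 to 1.10, adjusted p = 0.881).

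The difference of Aqp9 from control depended on control 42. Without that array it was -0.05 in treatment and -0.20 in model arrays, and without control 43 it was -0.93 (adjusted p = 0.175) and -1.08 (adjusted p = 0.0955). White cell markers summed to 508 to 906 on treatment arrays, 584 to 2259 on model arrays and 842 to 2183 on control arrays, with 4 of 9 (Camp, Cxcr2, Csf3r and Fcnb) under the filter. Their sum was 1820 in control 42 and 2183 in control 41, so the highest Aqp9 did not go with the highest sum. Most of that sum was the lysozyme gene Lyz2, at 1648 in control 42 and 1939 in control 41. The profile most similar to Aqp9 was that of Dop1b, at a correlation of 0.934 over the 9 arrays, and then Reg3g, an antimicrobial lectin, at 0.93. Reg3g measured 10.6, 23.1 and 6.86 on the treatment arrays, 7.84, 8.10 and 13.3 on the model arrays and 31.3, 87.6 and 7.47 on the controls, so it too was highest in control 42.

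Profiles most similar to the other tested members were as follows. For Aqp5 they were those of the mitochondrial ribosomal protein gene Mrpl15 and the mitochondrial gene Chchd10, at correlations of 0.988 and 0.982 over the 9 arrays. For Aqp8 they were those of Crlf2, a chain of the thymic stromal lymphopoietin receptor, and Trabd2b, a protease that acts on Wnt proteins, at 0.98 and 0.959. Without control 43 the correlations were 0.965 and 0.92 for Aqp8, and 0.989 and 0.983 for Aqp5. Crlf2 and Trabd2b were dim and moved over a narrow range: Crlf2 lay at 30.8 to 31.2 on treatment, 24.8 to 27.7 on model and 23.0 to 29.3 on control arrays.

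Aqp7, the glycerol channel of fat cells, and Aqp4, the water pore of astrocytes and muscle fibres, were below the filter level on all 9 arrays. Aqp7 measured 9.05 to 10.1 on treatment, 5.95 to 11.1 on model and 6.43 to 8.18 on control arrays. Its neighbour on rat chromosome 5, Aqp3, is the next protein-coding gene. The main probe set of Aqp4 measured 4.24 to 6.25 on treatment, 4.47 to 4.64 on model and 4.21 to 4.98 on control arrays, and its other 2 probe sets were lower on average. Values this low on an array without detection calls bound neither gene's level. Of the adipocyte markers, 4 of 9 (Plin1, Lep, Cidec and Ucp1) were under the filter, and the list summed to 279 to 390 on treatment, 383 to 451 on model and 184 to 623 on control arrays. Gene by gene, 4 of the 5 tested were higher in treatment and 4 in model against control, and 0 passed. Their median log2 fold changes were 0.18 and 0.65, against -0.04 and 0.02 over all genes. Without control 43, Plin4 and Cfd passed as higher in model arrays (0.74 and 0.83, adjusted p = 0.0272 and 0.038), and 0 passed in treatment arrays. Of all genes, 12.6% then passed in model and 6.56% in treatment against control.

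Among the 5 other aquaporin genes on the array, Mip, the lens fibre channel, and Aqp11, an intracellular aquaporin, were below the filter level on all 9 arrays, like Aqp2 and Aqp6. Aqp12a, a channel known from pancreatic acinar cells, was tested. It measured 43.2, 47.6 and 42.8 on the treatment arrays, 37.5, 41.2 and 35.6 on the model arrays and 41.0, 38.5 and 35.0 on the controls. Every treatment array was above every model and control array by a small margin, as for 8.1% of all genes against model and 9.4% against control. Treatment differed from control by 0.16 (SE 0.07, adjusted p = 0.312) and from model by 0.16 (SE 0.07, adjusted p = 0.357), and model from control by -0.002 (adjusted p = 0.991).

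Genes that bind, place or regulate aquaporins did not pass in any comparison. Of 13 tested, 0 passed, with median log2 fold changes of -0.01 in treatment against control and -0.02 in model against control (all genes, -0.04 and 0.02). Akap7, an anchoring protein of protein kinase A, measured 86.3, 113 and 103 on the treatment arrays, 80.3, 82.3 and 90.3 on the model arrays and 43.1, 44.3 and 74.2 on the controls, so that both induced groups lay above all controls, as they did for 2.58% of genes. It differed from control by 0.76 in treatment (adjusted p = 0.107) and by 0.55 in model arrays (adjusted p = 0.294). Radixin and moesin, encoded by Rdx and Msn, link membrane proteins to actin, and they differed by 0.30 and 0.37 in treatment (adjusted p = 0.148 and 0.181) and by 0.32 in model arrays for either gene (adjusted p = 0.254 and 0.355). Without control 43, Akap7 and Rdx rose in both induced groups: Akap7 by 0.96 in treatment and 0.75 in model (adjusted p = 0.0045 and 0.00925), and Rdx by 0.35 and 0.37 (adjusted p = 0.0472 and 0.0283). The kinase gene Prkca, named after its values were seen, then fell by 0.21 in model arrays. In those fits 6.56% of all genes passed in treatment and 12.6% in model against control.

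Ion and bicarbonate transport genes, which set the gradients that water follows, had 17 of 24 members tested and 0 that passed. The chloride channel gene Cftr and the sodium channel genes Scnn1a and Scnn1g were among the 7 under the filter. Fxyd4, a regulator of the sodium pump, measured 17.8, 32.5 and 16.1 on the treatment arrays, 122, 50.4 and 16.7 on the model arrays and 424, 157 and 372 on the controls. Its 3 controls lay above all induced arrays, control 43 included, as for 3.68% of genes, and it differed by -3.04 in treatment (adjusted p = 0.0568) and -2.21 in model arrays (adjusted p = 0.208). Fxyd3, of the same family, differed by -1.83 (adjusted p = 0.108) and -1.54 (adjusted p = 0.254), and the pump subunit gene Atp1b1 by 1.03 (adjusted p = 0.106) and 0.69 (adjusted p = 0.317). Without control 43, 6.56% of all genes passed in treatment and 12.6% in model against control. In this list 1 member rose and 3 fell in treatment, and 1 rose and 2 fell in model arrays. Those were Car2, a carbonic anhydrase, higher in both, Fxyd3 and the anion exchanger gene Slc26a4, lower in both, and Fxyd4, lower in treatment, of which Car2 and Slc26a4 were named after their values were seen.

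Of 12 osmotic stress response genes, 1 passed as lower in treatment and 0 in model against control (all genes, 0.51% and 0.0273%). It was Akr1b1, aldose reductase, which makes the osmolyte sorbitol and measured 492, 506 and 477 on the treatment arrays, 989, 654 and 646 on the model arrays and 1760, 1317 and 1485 on the controls. It fell in treatment against control by 1.59 on the log2 scale (SE 0.17, adjusted p = 0.0176), whereas a second, dim probe set gave 0.07. No gene passed in that comparison without treatment 33, so this call was lost there. Without control 43, Akr1b1 and the amino acid transporter gene Slc38a2, named after its values were seen, fell in both induced groups. Of all genes, 6.56% then passed in treatment and 12.6% in model against control. The taurine transporter gene Slc6a6 differed from control by -0.88 in treatment and -0.06 in model arrays, and the inositol transporter gene Slc5a3 by 1.43 and 0.30, and neither passed. Slc5a3 measured 220, 326 and 216 on the treatment arrays, 65.3, 92.6 and 187 on the model arrays and 90.3, 147 and 39.0 on the controls, so that its treatment arrays lay above all others, as for 9.4% of all genes against control and 8.1% against model. Its adjusted p was 0.174 against control and 0.319 against model.

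Glycerol and triglyceride genes, whose products supply or use what aquaglyceroporins carry, had 12 members tested and 0 that passed. Mgll, the monoglyceride lipase that frees glycerol, differed by -1.87 in treatment and -1.31 in model against control (adjusted p = 0.111 and 0.313), glycerol kinase, Gk, by -0.38 and -0.20 (adjusted p = 0.163 and 0.466) and the lipin gene Lpin1 by -0.34 and -0.07 (adjusted p = 0.236 and 0.819). The list's median was -0.23 in treatment and -0.09 in model against control, against -0.04 and 0.02 over all genes. Without control 43, 2 members fell in treatment, Mgll and the glycerol phosphate dehydrogenase gene Gpd2, and in model arrays Gpd2 fell and the lipoprotein lipase gene Lpl rose, with Gpd2 and Lpl named after their values were seen. The share of all genes that passed was then 6.56% in treatment and 12.6% in model against control.

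Oestrogen-induced genes of the rodent uterus, the list that holds C3, had 13 members tested and 0 that passed. Their sum was 11901 to 13857 on treatment, 7083 to 12690 on model and 7117 to 14587 on control arrays, lowest in model 21 and control 43. C3 itself is part of this sum, at 5116 of 14587 in control 41 and 13.2 of 7117 in control 43. The growth factor gene Igf1 measured 420, 218 and 276 on the treatment arrays, 730, 652 and 584 on the model arrays and 262, 348 and 1197 on the controls, and differed by -0.68 in treatment and 0.43 in model against control (adjusted p = 0.502 and 0.704). Ctsb, a lysosomal protease gene, differed by 0.99 and 0.36 (adjusted p = 0.216 and 0.64), and Ccnd1, encoding cyclin D1, by -0.40 and -0.14 (adjusted p = 0.327 and 0.752). Without control 43, the mucin gene Muc1 fell in treatment and in model arrays, and in model arrays the early response gene Fos fell and Igf1 rose, with Muc1 and Fos named after their values were seen. Smooth muscle markers were higher in 11 of 11 members in both induced groups against control (median 0.42 in treatment and 0.47 in model arrays, against -0.04 and 0.02 over all genes), and 0 passed. Without control 43, the smoothelin gene Smtn rose by 0.92 in treatment (adjusted p = 0.0314) and by 1.11 in model arrays (adjusted p = 0.0147), and the leiomodin gene Lmod1 rose by 1.08 in model arrays (adjusted p = 0.0171). For either list, these calls without control 43 stand beside 6.56% of all genes in treatment and 12.6% in model against control.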

How the data were processed

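Biotin-labelled uterine RNA was read on Affymetrix rat arrays, 1 per sample, per the labels' protocols. The deposited values are 1 normalized intensity per probe set and array on a linear scale; MAS5 is named in the submitters' processing notes, with no settings, and no detection calls were used here. The number of arrays, 3 per group, limits the precision.

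Of 31099 probe sets, 57 Affymetrix controls were left out, and 20826 carried 1 gene symbol. Symbols of 20758 were matched to RefSeq by gene identifier. Values were taken as log2(intensity + 16), probe sets under the 40th percentile of their own array on more than 6 arrays were removed, and the highest-mean probe set stood for its gene. The 3 groups were fitted together with limma 3.58.1 in R 4.3.3 (with a variance trend and two-sided tests, 6 residual degrees of freedom), with Benjamini-Hochberg adjustment within each comparison over the 10973 genes tested. The self-test ran on simulated data.

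The aquaporins, gene lists, alternatives and naming rule (all aquaporins, the 3 members of each list with the smallest p, and the 2 most correlated genes per tested aquaporin) were chosen with earlier results of these data known. A small number of genes named outside the rule are marked. Promoter windows came from RefSeq tables (GRCr8), with 6 of 7 aquaporins matched. The arms of the oestrogen response element and the TATA box were searched after the data were seen. Plots used matplotlib 3.10.9 (Python 3.11.15).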

Additional observations from a re-analysis of the deposited data

How the results depend on the processing

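The count of aquaporins that passed was 0 over all 9 arrays in each comparison, and it was 0 with 1 or 64 added before log2, quantile normalization, median centring, no filter, a 60th percentile filter, no variance trend, the compared groups alone and the mean of probe sets. With 1 array left out it was 0 to 1 in treatment against control, in model against control and for both induced groups together, and 0 in treatment against model; the 1 was Aqp5 without control 43. Without control 43 and the filter together it was 2 (Aqp3 and Aqp5) in the 3 comparisons with control. For Aqp3 that setting keeps only the controls above the filter level, so its call gives no support for a fall. The cause of control 43's position was not tested.

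Directions turned for differences near 0 or resting on few arrays. In model against control, Aqp8 was 0.06 and became -0.02 with 64 added, -0.53 without model 23, and -1.06 without control 43, with or without the filter. For both induced groups together, Aqp8 became -0.0627 without control 43, with or without the filter. Aqp1 became 0.16 in treatment against control without control 43 and the filter, and its second probe set gave -0.0272, 0.0799 and 0.107 in model against control, treatment against control and treatment against model. With 1 array left out, Aqp1 ranged from -0.56 to 0.27 in treatment against control and from -0.21 to 0.41 for both induced groups, Aqp5 from -0.39 to 0.0211 and Aqp9 from -0.0942 to 0.30 in treatment against model, Aqp8 from -1.06 to 0.71 in model against control and from -0.0627 to 1.70 for both induced groups, and Aqp12a from -0.0447 to 0.035 in model against control.

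The number of genes that passed was 56 in treatment against control, 3 in model against control, 0 in treatment against model and 63 for both induced groups. With 1 array left out these were 0 to 720, 0 to 1384, 0 to 3 and 3 to 1245, the highest counts in comparisons with control being those without control 43. With no filter 1 gene passed in model against control and 34 for both induced groups, the compared groups alone gave 1 in model against control, and the mean of probe sets gave 32 for both induced groups. No paired analysis was made because the labels give no pairing of arrays between groups. The background level of the intensities is unknown, which limits Aqp3, Aqp4 and Aqp7.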
